A study of Homo sapiens with 11 samples.

Results

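The enzymes described here make serine and glycine and pass their one-carbon units to folate: PHGDH, PSAT1, PSPH, SHMT1, SHMT2, MTHFD1, MTHFD1L, MTHFD2 and GLDC, with asparagine synthetase (ASNS) beside them. They were chosen by name, and every probe set annotated with one of the 10 genes under its current or a former symbol was taken, which gave 25 of the 54675 probe sets on the array. Of these, 20 carried 1 gene symbol, and 5 were shared with other genes and are given separately. RNA was measured in IMR32, a human neuroblastoma cell line with amplified MYCN, on 11 one-colour Affymetrix expression arrays. Cells received lentivirus with the control hairpin SHC002 or with 1 short hairpin RNA directed at MYCN, or no virus. Cells without virus were collected at 0 hours (2 arrays). Cells with the control hairpin were collected after 24, 48 and 72 hours on a single array each time, and those labelled shMYCN at the same hours on a pair of arrays, A and B. All groups were cultured in the same medium with fetal calf serum. The design thus holds 1 cell line, 1 hairpin and 1 control array per hour, and nothing in the labels says that arrays of 1 group are separate cultures. The spread behind the p-values is therefore that between arrays and may be technical.

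Cells build serine from a glycolytic intermediate in 3 enzyme steps run by PHGDH, PSAT1 and PSPH. Serine hydroxymethyltransferases then split serine into glycine and a one-carbon unit carried on folate, SHMT2 in mitochondria and SHMT1 mainly in the cytosol. In mitochondria MTHFD2 oxidises that unit on folate and MTHFD1L releases it as formate. MTHFD1 puts formate back on folate in the cytosol, and the glycine decarboxylase GLDC breaks glycine down to release a further unit. These units go into purines, thymidylate and methyl groups, which dividing tumour cells need. Several of the genes are known targets of the transcription factor ATF4, which is active when amino acids are short, and MYCN and MYC are known to act on serine synthesis in neuroblastoma and other tumours.

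The stretches before the start sites of PHGDH, MTHFD1 and GLDC are shown because these genes passed the test in the mean over hours, and that of ASNS because it holds a match to the ATF4-type element. Each is the 150 bases before the annotated start, 5′ to 3′ on the gene's strand, from RefSeq on GRCh38.p14; capitals mark a match to a motif searched.
PHGDH, chr1:119711784-119711933, plus strand: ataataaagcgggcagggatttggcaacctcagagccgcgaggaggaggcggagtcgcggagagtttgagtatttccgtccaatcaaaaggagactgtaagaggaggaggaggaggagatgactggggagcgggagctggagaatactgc
MTHFD1, chr14:64388203-64388352, plus strand: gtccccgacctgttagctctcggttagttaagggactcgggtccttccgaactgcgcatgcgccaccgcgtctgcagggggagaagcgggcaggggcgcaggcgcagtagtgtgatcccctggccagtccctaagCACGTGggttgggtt
GLDC, chr9:6645730-6645879, minus strand: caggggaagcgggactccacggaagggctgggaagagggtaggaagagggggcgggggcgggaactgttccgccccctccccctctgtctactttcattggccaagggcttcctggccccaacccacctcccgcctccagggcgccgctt
ASNS, chr7:97872409-97872558, minus strand: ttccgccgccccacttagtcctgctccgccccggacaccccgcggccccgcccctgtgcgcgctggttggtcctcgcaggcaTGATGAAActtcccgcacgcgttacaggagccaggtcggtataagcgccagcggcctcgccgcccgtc
The motifs were the E-box CACGTG, the type bound by MYC family factors, and TGATGNAA, the core of the element bound by ATF4 with C/EBP factors, each searched on both strands in windows of 300 bases, 250 before and 50 after a start. CACGTG was present in 7.25% of 35097 such windows and TGATGNAA in 3.62%. SHMT2, which also passed, and PSPH have no window in the table used. Of the 8 genes with at least 1 window (12 windows in all), MTHFD1 and MTHFD1L held CACGTG, in MTHFD1 15 bases before the start. ASNS, 68 bases before the start shown, and MTHFD1L held TGATGNAA. Each motif was in 4 of the 12 windows, of which 3 were overlapping windows of MTHFD1L; the window at the other ASNS start and the remaining one of MTHFD1L held neither. The windows of PHGDH, PSAT1, SHMT1, MTHFD2 and GLDC held neither string in these letters. A match is a description of the sequence and not evidence of binding.

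Signals are the deposited linear intensities. Every array had been brought to a common average (the trimmed mean over 96 percent of probe sets was close to 100), which hides any change in RNA content per cell, and fewer cells with an RNA cannot be told apart from less of it per cell. Median signals per array lay between 14.9 and 16.7, and the 3′ to 5′ ratio of GAPDH lay between 0.970 and 1.07. MYCN, the targeted gene, was covered by 10 probe sets. None was called lower in the arrays labelled shMYCN than in control virus at any hour or in the mean over hours (limma on each probe set). Several of them read 15.1 or less on every array, too dim to show a fall. The brightest read 5332.1, 5389.7 and 5055.3 in control virus at 24, 48 and 72 hours and between 4567.4 and 5623.7 in the 6 arrays labelled shMYCN, a log2 difference of -0.020 (adjusted p = 0.924). A dimmer MYCN probe set read 406.4, 520.1 and 370.4 in control virus, and 254.2 and 292.3, then 319.4 and 624.2, then 650.7 and 795.6 in the arrays labelled shMYCN. Its differences of -0.55 at 24 hours and 0.93 at 72 hours did not pass (adjusted p = 0.663 and 0.0996). A further one, also dimmer than the brightest, gave -0.52 and 0.68 (0.676 and 0.214). On both probe sets the arrays labelled shMYCN lay below every control virus and no virus array at 24 hours and above them all at 72 hours. Both probe sets were called higher at 72 than at 24 hours within the arrays labelled shMYCN, 2.55-fold and 2.39-fold (adjusted p = 0.0106 and 0.0133). Against no virus, 1 of the 10 was called lower (-0.34), but it read only 0.2 to 5.3 over all arrays. On the same probe set control virus stood at -0.30 against no virus, which was not called (limma adjusted p = 0.72). No fall of MYCN RNA against control virus was called on these arrays, so each direction below is that of arrays labelled shMYCN. Neuroblastoma markers were present in every group: the summed signal of 8 markers was 6787.9 to 7575.1 in the arrays labelled shMYCN, 6455.1 to 7550.3 in control virus and 6973.5 to 7192.2 without virus. GATA3 made the largest part of that sum (mean signal 3264.1), and TH, one of them, was dim, with signals of 0.6 to 25.4. Of the 7 tested in the mean over hours, DBH was lower than in control virus (-0.47, limma adjusted p = 9.47e-04). CHGA and CHGB were higher (0.32 and 0.47, adjusted p = 0.00396 and 2.61e-04), and 4 did not pass. Of the other cell types looked for, leukocyte markers (5 genes) summed to 49 to 57, 49.1 to 55.4 and 47 to 62.4 in the same order. Schwann or glial markers (4 genes) summed to 11.4 to 41.4, 7.9 to 26.1 and 19.1 to 21.9. Fibroblast or stroma markers (5 genes) were higher in the arrays labelled shMYCN, with sums of 465.5 to 710.9 against 327.1 to 402.7 and 350.5 to 372.2. That sum was carried by COL1A1 (292.2 to 658.6 over all arrays), while DCN, LUM and COL1A2 stayed at or below 15.7 on every array and PDGFRB read 13.1 to 34.1. Both stroma markers that could be tested rose in the mean over hours, COL1A1 by 0.67 (adjusted p = 3.78e-04) and PDGFRB by 0.35 (adjusted p = 0.03); their part in the results was not tested.

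Against control virus at the same hour, averaged over the 3 hours, PHGDH, SHMT2 and MTHFD1 were lower and GLDC was higher, while PSAT1, PSPH, MTHFD2 and ASNS did not pass the test. Of the 10 genes, 8 had a probe set of their own above the limit for dim genes. SHMT1 and MTHFD1L were left out, with mean signals of 7.24 and 5.26 for the SHMT1 probe sets and 5.0 and 3.81 for those of MTHFD1L. The 3 lower of 8 stand beside 15.8% of all 11865 genes tested, and the 1 higher beside 22.2% (limma, Benjamini-Hochberg adjusted p under 0.05). With so few genes these shares describe the enzymes and set them apart from nothing. The median log2 difference was -0.05 over the 8 enzymes and 0.04 over all genes. Scaling each array to its median turned the split of all called genes from 1871 lower and 2629 higher to 2194 lower and 2062 higher, and at 72 hours from 1868 and 2166 to 2508 and 1456. It moved the median of all genes at 72 hours from 0.036 to -0.074 and changed no direction among these 4 enzymes.

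**Figure D1:**
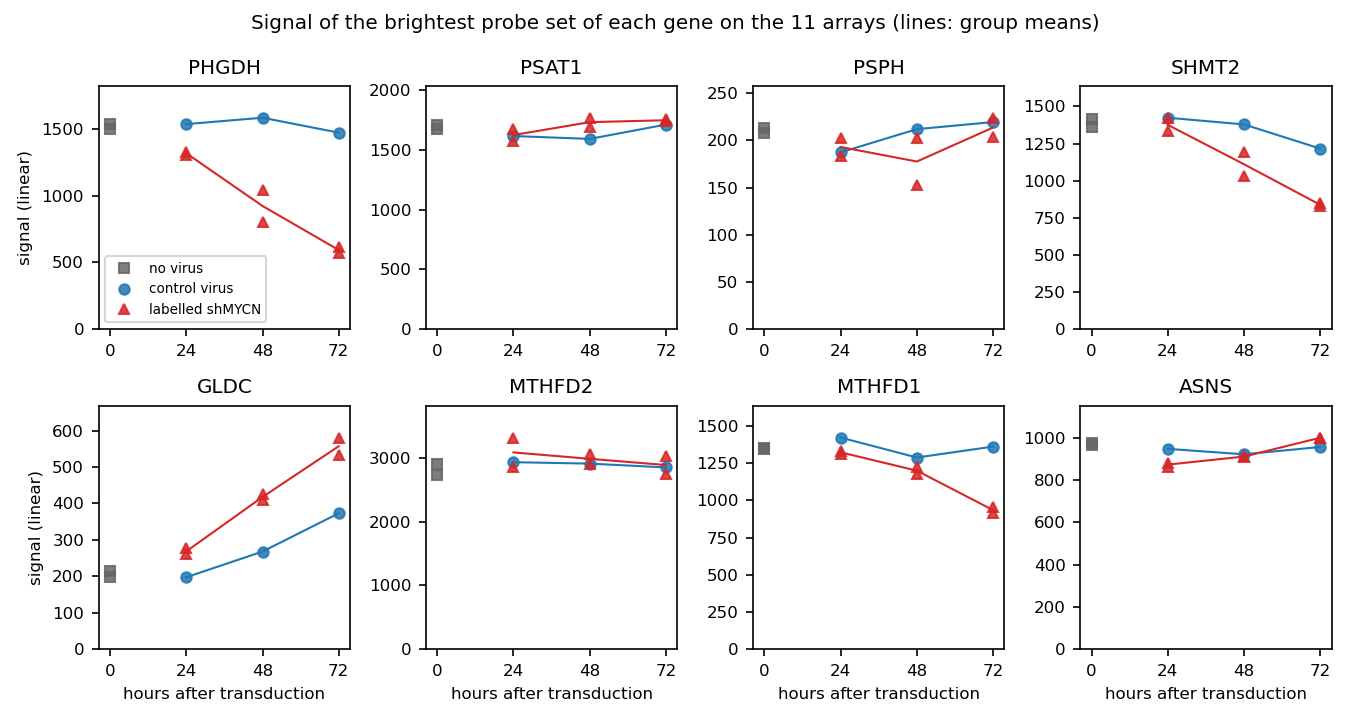
Signal (linear intensity, arbitrary units) of the brightest probe set of each enzyme against hours after transduction; each point is 1 array, marked as no virus (grey squares), control virus (blue circles) or labelled shMYCN (red triangles), and lines join group means. PHGDH in the arrays labelled shMYCN goes from 1326.2 and 1306.2 at 24 hours to 569.5 and 615.8 at 72 hours, while GLDC goes up in both the control and the labelled shMYCN arrays.

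PHGDH, phosphoglycerate dehydrogenase, commits carbon to serine synthesis, and its own probe set showed the clearest change of the group. Its signal was 1537.3 and 1498.1 without virus and 1534, 1581.9 and 1470.3 in control virus at 24, 48 and 72 hours. In the arrays labelled shMYCN it was 1326.2 and 1306.2 at 24 hours, 800.2 and 1043.6 at 48 hours, and 569.5 and 615.8 at 72 hours. All 6 of these arrays lay below all 5 arrays of control virus and no virus, and the values of the 3 hours did not overlap one another. The order of group means was thus no virus and the 3 control arrays, which lay within the same range, then 1316 ± 14.1 (SD, n = 2), 922 ± 172 and 593 ± 32.7. Averaged over hours PHGDH fell to 0.589 of control virus (log2 difference -0.76 ± 0.08 SE; limma adjusted p = 2.33e-05). At 24 hours the difference was -0.22 with a 95% interval of -0.51 to 0.08 (adjusted p = 0.606). At 48 hours it was -0.78 ± 0.14 (adjusted p = 0.00291), and at 72 hours -1.29 ± 0.14, or 0.409 of control (adjusted p = 3.9e-05). These folds are on the log2(signal + 16) scale, on which the change of a dim gene is understated. The difference from control itself widened from 24 to 72 hours by -1.07 ± 0.19 (adjusted p = 0.00646).

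A further probe set of PHGDH, annotated also to MZT2A and MZT2B, did not share that pattern. It read 1550.8, 1520.8 and 1332.5 in control virus and 1341.8 to 1718.3 in the arrays labelled shMYCN, with a mean log2 difference of 0.0052 (limma over every annotated probe set, adjusted p = 0.981). What it reports of each of its 3 genes cannot be told apart.

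PSAT1, phosphoserine aminotransferase, makes the next step and did not pass the test. Its brighter probe set read 1613.5, 1589.5 and 1709.1 in control virus, 1672.5 and 1702.5 without virus, and 1573.3 to 1766.4 in the 6 arrays labelled shMYCN. The groups overlapped, and the mean log2 difference was 0.05 with an interval of -0.07 to 0.17 (adjusted p = 0.482). The dimmer probe set, with 781.8, 877.7 and 804.7 in control virus and 676.1 to 927.3 in the arrays labelled shMYCN, gave -0.07 (adjusted p = 0.652 over probe sets).

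PSPH, phosphoserine phosphatase, completes serine, and was not called either. Its brightest probe set read 187.4, 212 and 219.5 in control virus and 152.9 to 224.1 in the arrays labelled shMYCN, where the lowest was array B of 48 hours. The mean log2 difference was -0.08 with an interval of -0.27 to 0.11 (adjusted p = 0.488). The difference at 48 hours passed the test only without array A of that hour, which left 152.9 alone against 212 (-0.43, adjusted p = 0.0239). Another PSPH probe set read 66.9, 91 and 84.4 in control virus and 56.5 to 95.8 in the arrays labelled shMYCN. A dim one, at 13.3, 16.6 and 21.8 in control virus and 22.4 to 40.4 in the arrays labelled shMYCN, lay higher in all 6 arrays than in all 5 others, yet did not pass the test over probe sets (0.43 ± 0.14, adjusted p = 0.089). The first enzyme of the serine route was thus called lower and the following pair was not; that the 3 differ from each other was not tested.

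**Figure D2:**
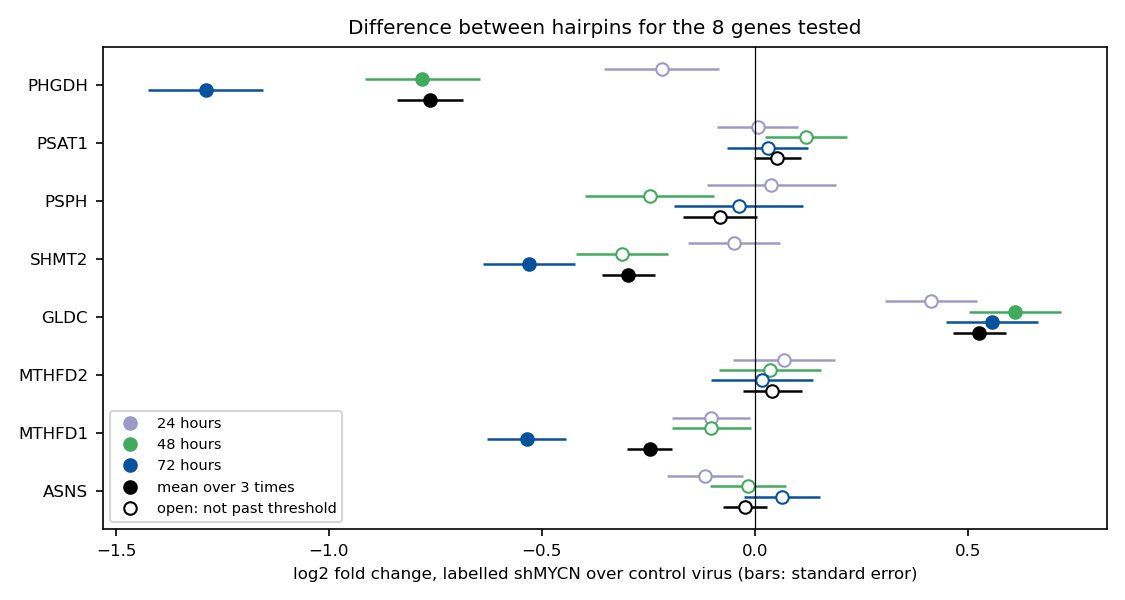
Log2 difference between arrays labelled shMYCN and control virus for the 8 enzymes tested, at 24, 48 and 72 hours and for the mean over hours; points are limma estimates, bars their standard errors, and open points did not pass the test. The PHGDH estimate moves from -0.22 at 24 hours to -1.29 at 72 hours, and all points of PSAT1, PSPH, MTHFD2 and ASNS are open.

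SHMT2, which splits serine in mitochondria, followed PHGDH by a smaller amount. The brightest of its 3 probe sets read 1412 and 1360.7 without virus and 1423.9, 1378.8 and 1216 in control virus. In the arrays labelled shMYCN it read 1419.9 and 1331.9 at 24 hours, 1030.2 and 1191.3 at 48 hours, and 848.9 and 826.4 at 72 hours. All 6 lay below the control array of their hour, and the 4 of 48 and 72 hours below every control and untreated array. At 24 hours the labelled shMYCN arrays lay within the range of the others. SHMT2 fell in the mean to 0.814 of control (-0.30 ± 0.06, adjusted p = 0.0031), and at 72 hours to 0.693 (-0.53 ± 0.11, adjusted p = 0.00302). The differences at 24 hours (-0.05, adjusted p = 0.914) and 48 hours (-0.31, adjusted p = 0.07) did not pass. The widening from 24 to 72 hours, -0.48 ± 0.15, did not pass either (adjusted p = 0.0701). With quantile normalization the widening passed (-0.52, limma adjusted p = 0.0255), and so did the difference at 48 hours (-0.30, limma adjusted p = 0.0437). Leaving out either array of 48 hours kept the widening at -0.48 and changed only its error, so that gives no further support. Without the control array of 72 hours that hour has no difference, and the mean over 24 and 48 hours alone was -0.18, which did not pass (adjusted p = 0.136). Without array B of 48 hours the difference at that hour was -0.41, with a single array on each side.

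The other SHMT2 probe sets had lower signals and the same direction, and at 72 hours neither passed over probe sets (adjusted p = 0.142 and 0.0651, in the order below). One read 575.3, 585.6 and 473.4 in control virus and 355.8 and 311.9 in the arrays labelled shMYCN at 72 hours, and its mean fall passed over probe sets (-0.40 ± 0.11, adjusted p = 0.0404). The other read 251, 234.8 and 218.4 in control virus and 137.8 and 159.4 at 72 hours, and its mean difference did not pass (-0.27 ± 0.09, adjusted p = 0.0789). On all 3 probe sets, 6 of 6 arrays were below the control of their hour.

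SHMT1, the cytosolic enzyme, could be read only through probe sets annotated also to the microRNA gene MIR6778. The first read 81.5 and 113.7 without virus and 84.3, 122.8 and 103.2 in control virus. Arrays labelled shMYCN read 98.6 and 65.9 at 24 hours, 48.6 and 55.9 at 48 hours, and 24.6 and 44.3 at 72 hours. The 4 later arrays and array B of 24 hours lay below all untreated and control arrays, and array A of 24 hours among them. The second read 188, 289.7 and 216.4 in control virus, and 250.3 and 192.4, then 205.7 and 199.8, then 73.4 and 104.3 in the arrays labelled shMYCN, so that the 72-hour pair stood apart. Both fell in the mean over hours, by -0.78 ± 0.17 (adjusted p = 0.0174) and -0.48 ± 0.11 (adjusted p = 0.0231), and at 72 hours, by -1.27 ± 0.29 (adjusted p = 0.0259) and -1.16 ± 0.19 (adjusted p = 0.00631). In this fit over every annotated probe set, 6.83% were lower in the mean over hours and 6.1% at 72 hours. Of the 5 shared probe sets 2 and 3 were, and both counts include the SHMT1 pair.

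**Figure D3:**
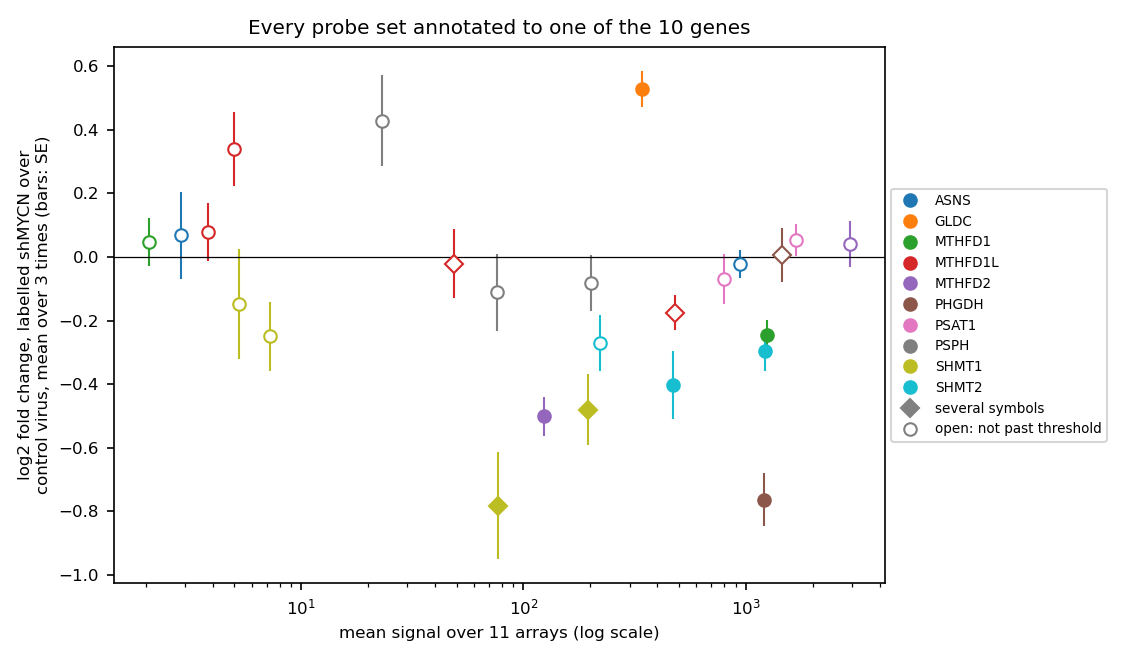
Log2 difference between arrays labelled shMYCN and control virus in the mean over 3 hours (vertical, bars are standard errors) against mean signal over the 11 arrays (horizontal, log scale); each point is 1 of the 25 probe sets, diamonds carry several gene symbols and open points did not pass the test. The PHGDH probe set sits at -0.76 and the one shared with MZT2A and MZT2B, at similar signal, at 0.0052, while the MTHFD2 probe sets sit at 0.04 and -0.50.

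GLDC, the decarboxylase of the glycine cleavage system, moved the opposite way. It read 214.3 and 198.6 without virus. In control virus it read 197.4 at 24 hours, 267.9 at 48 hours and 373.1 at 72 hours, so the control series itself went up, by 0.87 on the log2 scale between single arrays. In the arrays labelled shMYCN it read 260.2 and 276.8 at 24 hours, 426.6 and 409.1 at 48 hours, and 581.1 and 533.4 at 72 hours. All 6 lay above the control of their hour, and the 4 later arrays above all 5 others. The mean rise was 1.44-fold (0.53 ± 0.06, adjusted p = 6.91e-05). By hour the difference was 0.41 ± 0.11 (adjusted p = 0.126), 0.61 ± 0.11 (1.53-fold, adjusted p = 0.00334) and 0.56 ± 0.11 (1.47-fold, adjusted p = 0.00229). Its change from 24 to 72 hours was 0.14 ± 0.15 (adjusted p = 0.612), so a widening like that of PHGDH was not detected. Leaving out either array of 48 hours kept the difference at 24 hours at 0.41 and changed only its error. Against cells without virus, the control virus arrays gave 0.37 ± 0.08, which did not pass (adjusted p = 0.321). The control arrays of 48 and 72 hours alone, without that of 24 hours, gave 0.58 (adjusted p = 0.0322).

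MTHFD1, the cytosolic enzyme that joins formate to folate and interconverts the carriers, changed late. It read 1347.7 and 1355.7 without virus and 1422.7, 1288.5 and 1362 in control virus. In the arrays labelled shMYCN it read 1335.6 and 1311.5 at 24 hours, 1175.1 and 1224.7 at 48 hours, and 915.3 and 954.4 at 72 hours. The 48-hour and 72-hour arrays were below all 5 others, and the 24-hour arrays among them. The fall reached 0.69 of control at 72 hours (-0.54 ± 0.09, adjusted p = 0.00105), after -0.10 at both 24 and 48 hours (adjusted p = 0.767 and 0.496). Its mean was -0.25 ± 0.05, or 0.843 of control (adjusted p = 0.00371). The mean over 24 and 48 hours alone, all that is left without the control array of 72 hours, was -0.10 and did not pass (adjusted p = 0.324). The widening from 24 to 72 hours, -0.43 ± 0.13, had an adjusted p of 0.0585, and passed with the median or quantile scaling (0.0437 and 0.0197). Leaving out either array of 48 hours kept it at -0.43 and changed only its error. A second MTHFD1 probe set was dim; averaging it with the first took the 72-hour difference to -0.21 (adjusted p = 0.146) and the mean to -0.10 (adjusted p = 0.211).

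MTHFD2, the mitochondrial dehydrogenase and cyclohydrolase, gave different answers on its 2 probe sets. The bright one read 2930.3, 2908.2 and 2848 in control virus, 2908 and 2737 without virus, and 2751.3 to 3316.5 in the arrays labelled shMYCN. The groups overlapped, with 3 of the 6 arrays labelled shMYCN above all 5 others and the other 3 among them. Those above were the A arrays of each hour (3316.5, 3064.8 and 3020.5), and those among them the B arrays (2850.6, 2901.7 and 2751.3). Its mean difference was 0.04 with an interval of -0.11 to 0.19 (adjusted p = 0.673). The other read 154.7, 160.7 and 141.8 in control virus and 142.2 and 144.4 without virus. Arrays labelled shMYCN read 108.2 and 110.8 at 24 hours, 110.3 and 101.5 at 48 hours, and 91 and 96.9 at 72 hours, so that all 6 lay below all 5 others. It fell to 0.707 of control in the mean (-0.50 ± 0.06, adjusted p = 0.0013) and by -0.52 ± 0.11 at 72 hours (adjusted p = 0.0152), and was at -0.44 at 24 hours (adjusted p = 0.247). Over all probe sets with 1 symbol, 6.89% were lower in the mean and 6.18% at 72 hours, against 5 and 4 of the 20 here. These are not like shares. The whole set was not filtered for dim probe sets, while those lower here lay at percentile 74.2 of signal or above. SHMT2 also counts more than once among the 5. The probe set that fell has the ending _x_at, which the manufacturer gives to sets whose probes may bind other transcripts. The mean over both probe sets turned the direction of MTHFD2 (-0.23, adjusted p = 0.00803), and quantile normalization of the bright one called it higher (0.11, adjusted p = 0.0296), so no direction is given for the gene.

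MTHFD1L, the mitochondrial formate producer, had only dim probe sets of its own. A probe set annotated also to LOC101928195 and LOC100996643 read 533.3 and 520.6 without virus and 496.8, 498.3 and 530.5 in control virus. Arrays labelled shMYCN read 468.3 and 515.3 at 24 hours, 511 and 476.8 at 48 hours, and 384.9 and 357 at 72 hours, where the pair lay below every other array. Its difference passed at 72 hours (-0.50 ± 0.10, adjusted p = 0.0123) and not in the mean (-0.18, adjusted p = 0.0728). A dimmer one with the same annotation read 36.1 to 65 in control virus and 34.8 to 53.2 in the arrays labelled shMYCN and gave 0.09 at 72 hours, which did not pass.

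ASNS, which makes asparagine and is a textbook ATF4 target, lay between 864.1 and 1001.3 on all 11 arrays. It read 977.1 and 965.9 without virus and 947.7, 922 and 956.7 in control virus. Arrays labelled shMYCN read 864.1 and 882.5 at 24 hours, 908.8 and 913.9 at 48 hours, and 1001.3 and 999.5 at 72 hours. The first 4 lay below all 5 others and the last 2 above them. Against control virus the mean difference was -0.02 with an interval of -0.14 to 0.09 (adjusted p = 0.753). Between 72 and 24 hours among the arrays labelled shMYCN the difference was 0.19 ± 0.07 (adjusted p = 0.059). It passed with quantile normalization (0.24, adjusted p = 0.0127) and with a stricter limit on dim genes (adjusted p = 0.0419). Leaving out either array of 48 hours kept it at 0.19 and changed only its error.

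By hour, the count of enzymes past the test grew. At 24 hours limma called none of the 8, where 0.708% of all genes were called in either direction. An unadjusted p under 0.05 was reached by 1 of the 8 (GLDC), beside 1370 of all 11865 genes. At 48 hours PHGDH was lower and GLDC higher, beside 6.9% of all genes lower and 10.1% higher. At 72 hours PHGDH, SHMT2 and MTHFD1 were lower and GLDC higher, beside 15.7% and 18.3%. The test of a changed difference between 24 and 72 hours called PHGDH alone, beside 10.3% of all genes. Within the arrays labelled shMYCN, 72 against 24 hours gave falls of -1.13 ± 0.11 for PHGDH (adjusted p = 2.26e-05), -0.70 ± 0.09 for SHMT2 (1.2e-04) and -0.49 ± 0.08 for MTHFD1 (4.42e-04). GLDC rose 2.01-fold there (1.01 ± 0.09, adjusted p = 1.16e-05). Of all genes 18.3% were lower and 18.1% higher in that comparison, which includes what the hours in culture do by themselves. Median scaling moved its split from 2172 lower and 2149 higher to 2722 and 1531, and that of the changed difference from 691 and 536 to 805 and 374.

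Cells without virus, all collected at 0 hours, gave a second reference, from which virus and hours in culture cannot be told apart. For control virus against no virus, limma called none of the 8 enzymes, where 0.0337% of all genes, 4, were called. An unadjusted p under 0.05 was reached there by 1 of the 8, beside 631 of all 11865 genes. Against no virus the arrays labelled shMYCN were lower for PHGDH (-0.75 ± 0.09, adjusted p = 1.01e-04), SHMT2 (-0.35 ± 0.07, 0.0036) and MTHFD1 (-0.24 ± 0.06, 0.0117) and higher for GLDC (1.86-fold, 0.89 ± 0.07, adjusted p = 6.76e-06). The shares of all genes were 13.1% lower and 17.7% higher, a split of 1556 and 2095 that median scaling turned to 1968 and 1498. For GLDC, the control virus array of 72 hours by itself stood 0.81 above no virus on the log2 scale. The comparisons with control virus and with no virus use the same 6 arrays labelled shMYCN, so they are not independent. Without array 1 of no virus the calls of SHMT2 (-0.32, adjusted p = 0.0692) and MTHFD1 (-0.25, adjusted p = 0.12) were lost, and without array 2 that of MTHFD1 (-0.24, adjusted p = 0.133).

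Across the 11 arrays, the brightest probe sets of PHGDH, SHMT2 and MTHFD1 moved together: Pearson's r of log2 signals was 0.962 for PHGDH with SHMT2, 0.956 for PHGDH with MTHFD1 and 0.952 for MTHFD1 with SHMT2. GLDC ran against them, with r of -0.922, -0.892 and -0.867 with SHMT2, PHGDH and MTHFD1. The arrays fall into the groups of the study and share them, so these values describe the time course and are no independent evidence. Of all 11865 genes, those with the closest pattern to PHGDH were CDCA8 (r = 0.996), PPP4C (0.995) and DRAP1 (0.995). SHMT2 was closest to PSMB3 (0.993), PPP1CA (0.987) and MFAP4 (0.987), and MTHFD1 to PRPF4 (0.986), TXN (0.986) and MGST3 (0.985). GLDC was closest to PPP1R17 (0.992), TMEM163 (0.987) and SPRED2 (0.986). The genes that were not called had lower values: PSAT1 with RAPGEF6 (0.942), CCNT2 (0.914) and NT5C2 (0.901), and ASNS with NSMAF (0.930), PCMTD2 (0.876) and EBF3 (0.869). MTHFD2 was closest to DSTN (0.916), PLXNA4 (0.913) and GTPBP8 (0.897), and PSPH to ZNF529 (0.888), NIPBL (0.859) and PTPN6 (0.845).

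Other genes of folate and one-carbon metabolism were mostly not called. In the mean over hours, the 25 tested from a list of 31 held 6 lower, 1 higher and 18 that did not pass; at 72 hours 7 were lower and 18 did not pass. The median log2 difference of the list was 0.0082 in the mean and -0.014 at 72 hours, beside 0.037 and 0.036 over all genes. The shares of all genes called lower were 15.8% and 15.7%, and those called higher 22.2% and 18.3%. Most genes on the array were not called either, as 4500 of 11865 passed in the mean and 4034 at 72 hours. MTFMT, which uses formyl-folate to charge the mitochondrial initiator tRNA, fell by 0.93 (adjusted p = 1.23e-05) and by 1.29 at 72 hours. TYMS, thymidylate synthase, fell by 0.33 (adjusted p = 0.00267) and by 0.72 at 72 hours. SLC19A1, the reduced folate carrier, fell by 0.41 (adjusted p = 0.00416) and by 0.78 at 72 hours. MTRR, which reactivates methionine synthase, fell by 0.29 (adjusted p = 0.00463) and by 0.49 at 72 hours. The 1 that rose, named after its values were seen, was SFXN1, the mitochondrial serine transporter (0.26 ± 0.09, adjusted p = 0.0315).

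Genes of the ATF4 amino acid response, of which 31 from a list of 35 were tested, split both ways: 7 were lower, 5 higher and 19 not called in the mean over hours, and at 72 hours the counts were again 7, 5 and 19. Over all genes 15.8% were lower and 22.2% higher in the mean, and 15.7% and 18.3% at 72 hours. The median of the list was -0.0086 in the mean and 0.020 at 72 hours, beside 0.037 and 0.036 over all genes. PYCR1, which makes proline, fell by 0.70 (adjusted p = 1.09e-05) and by 1.07 at 72 hours. CEBPB, a transcription factor, fell by 0.60 (adjusted p = 2.91e-05) and by 1.03. TRIB3, a pseudokinase induced by ATF4, rose by 0.60 (adjusted p = 1.84e-04) and by 0.85 at 72 hours. DDIT4, an inhibitor of mTORC1 signalling, rose by 0.53 (adjusted p = 2.51e-04) and by 1.17 at 72 hours. The other 3 that rose, SLC38A2, ALDH18A1 and JDP2, were named after their values were seen and rose by 0.26, 0.19 and 0.29; at 72 hours ALDH18A1 did not pass and ATF3 did. The others that were lower in the mean over hours, CHAC1, SESN2, AARS1, GARS1 and NARS1, were likewise named after their values were seen. They stood at -0.63, -0.57, -0.26, -0.24 and -0.21. ATF4 itself was at -0.02 and did not pass.

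**Figure D4:**
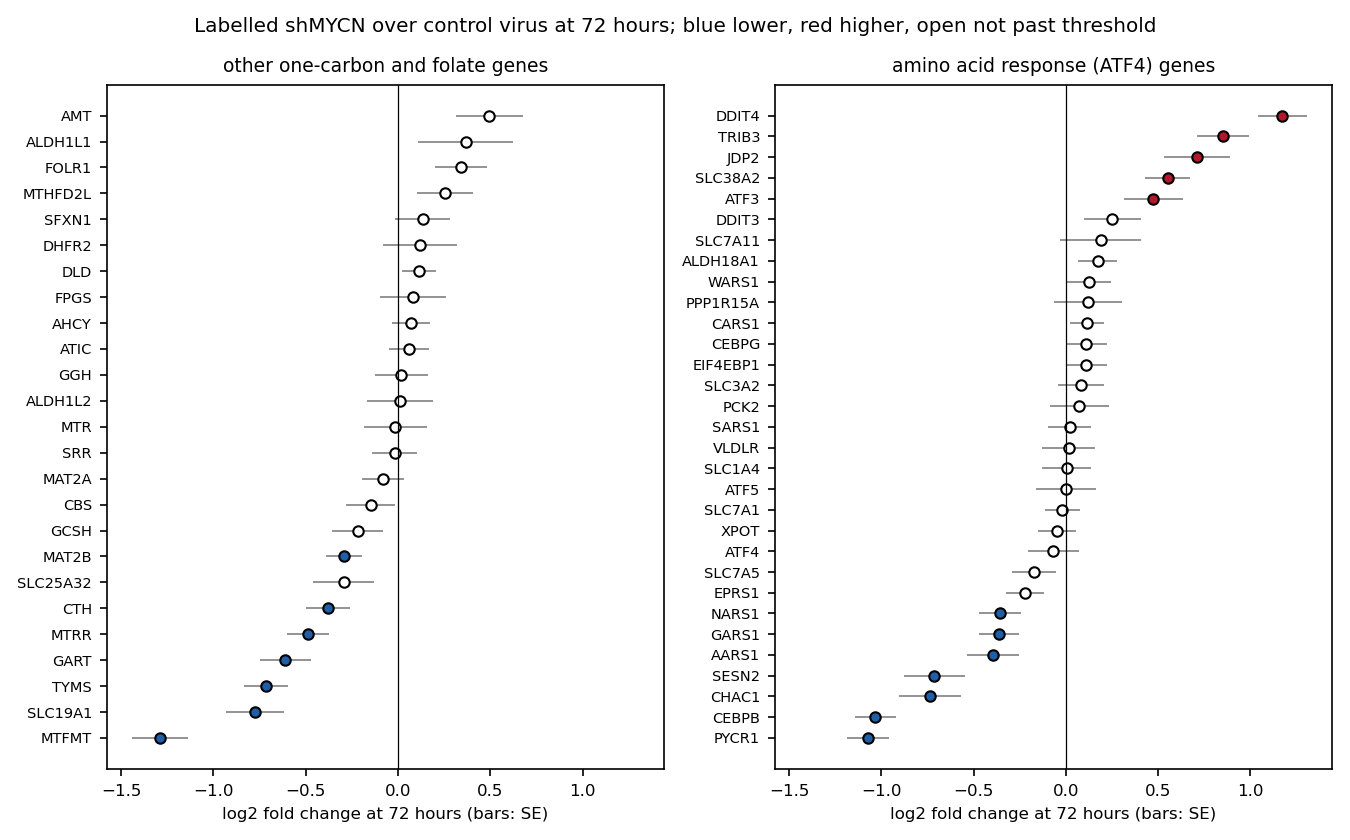
Log2 difference at 72 hours between arrays labelled shMYCN and control virus for the other one-carbon and folate genes (left) and the ATF4 response genes (right); each point is 1 gene tested, bars are standard errors, blue points passed as lower, red as higher and open ones did not pass. MTFMT at -1.29 is lowest on the left, where no point is red, and the right panel runs from PYCR1 at -1.07 to DDIT4 at 1.17.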

How the data were processed

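Total RNA of 11 IMR32 samples was hybridised to Affymetrix arrays. The authors deposited a linear intensity for each of 54675 probe sets and array. MAS5 and GCOS are listed in the submitters' processing notes; versions and genome build are not given in the sources used here. Gene names came from the annotation table of the platform, updated through Entrez numbers with the RefSeq table of GRCh38.p14. Of these 41097 had 1 symbol, 1801 several and 11777 none; 62 control probe sets were left out. PGD, a former alias of PHGDH, was left out because its 3 probe sets carry the Entrez number of another gene.

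From the deposited intensity, log2(signal + 16) was computed. A gene was its brightest probe set, and the dimmest 40 percent of 19775 genes (mean signal under about 14.8) were left out, leaving 11865. Means of 7 groups were fitted with limma 3.58.1 in R 4.3.3 (eBayes with trend, 4 residual and 7.35 prior degrees of freedom), two-sided, with Benjamini-Hochberg adjustment over all genes and a threshold of 0.05. The single control arrays were assumed to vary like the groups of 2. Probe sets of the enzymes and MYCN were fitted over all 41091 probe sets with 1 symbol, unfiltered. Shared probe sets were fitted over every annotated probe set, an alternative chosen after seeing the data. The fit was tested on simulated data. All members are named; of each pathway list, up to 4 genes by smallest p in the mean over hours were named, and of each tested member the 3 genes of highest Pearson correlation over 11 arrays. Members and lists were chosen with earlier results of these data known. The number of arrays limits the precision.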

Additional observations from a re-analysis of the deposited data

Results flagged for a closer look

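PHGDH was singled out because the difference between arrays labelled shMYCN and control virus was not the same at 24 and 72 hours by a test of that change itself. The log2 difference moved by -1.07 ± 0.19 between these hours (limma adjusted p = 0.00646), from -0.22 to -1.29, with 2 arrays labelled shMYCN and 1 control array at each hour. Over 21 alternatives the change lay between -1.14 and -1.01, with adjusted p-values of 1.56e-04 to 0.047. The control arrays of these hours read 1534 and 1470.3, and the arrays labelled shMYCN 1326.2 and 1306.2, then 569.5 and 615.8.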

How the results depend on the processing

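Of 1456 values of the enzymes under the alternatives, 1424 kept their side of the threshold, 21 passed it in the same direction, 10 lost it, and 1, MTHFD2 in the mean over hours with the mean of all probe sets (-0.23), passed it with the opposite sign. Of the 1424, 51 changed sign, all among differences that were not called. Among the 8 enzymes, quantile normalization gave 2 higher in the mean over hours, 2 lower at 48 hours, 3 lower in the change from 24 to 72 hours and 3 higher at 72 against 24 hours within the arrays labelled shMYCN. Of all genes it called 2581 higher, 865 lower, 781 lower and 2167 higher in the same order. Without it these counts were 2629, 819, 691 and 2149. For the change from 24 to 72 hours, median scaling, leaving out the dimmest 60 percent and the letters A and B as a replicate block each gave 2 lower; the dimmer limit also gave 2 higher at 72 against 24 hours. The letters were not shown to pair the arrays: differences between A and B correlated at -0.051, 0.038 and 0.100 between hours. Leaving out a control array removes its hour from a mean over hours. Leaving out an array of 48 hours changes only the error of comparisons that do not use that hour, so calls gained that way are no added support. Leaving out 1 array at a time gave 1 to 3 lower in the mean over hours, 1 to 3 lower against no virus, 1 to 3 lower in the change from 24 to 72 hours, 1 to 2 lower at 48 hours, 0 to 1 higher at 24 hours, 0 to 1 higher for control virus against no virus and 1 to 2 higher at 72 against 24 hours. MTHFD1 against no virus also lost its call with the additive model of virus and hour (adjusted p = 0.0801), with the mean of all probe sets (0.697) and at a threshold of 0.01.

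Counts over all genes moved by over 1.5 times. Over the settings they were 2846 to 6256 for the mean over hours (4500 as reported), 19 to 129 at 24 hours (84), 847 to 2215 at 48 hours (2015), 2441 to 5319 at 72 hours (4034), 370 to 1431 for the change from 24 to 72 hours (1227), 2658 to 5821 for 72 against 24 hours (4321), 2144 to 4548 against no virus (3651) and 0 to 8 for control virus against no virus (4). Leaving out 1 array gave 1938 to 5603, 3 to 413, 1556 to 3587, 2896 to 5183, 557 to 2478, 2648 to 5489, 1752 to 4837 and 0 to 36 in the same order. The 6256, 5319, 5821 and 4548 above, and the 19 at 24 hours, are counts of probe sets and not of genes. They came from the fit over every annotated probe set, 42892 in all against 11865 genes. In the mean over hours 6.83% of these probe sets were lower and 7.75% higher, smaller shares than the 15.8% and 22.2% of genes. With 1 control array per hour, the spread of the control was borrowed from the other groups. Signals near those of dim genes, such as SHMT1 and MTHFD1L on their own probe sets, give no usable difference here. The cause of these moves was not tested.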
